A study of Mus musculus with 4 samples.

Results

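Slc19a1, Folr1, Folr2 and Slc25a32, mouse genes whose products carry folates into the cell or into the mitochondrion, were followed in whole-genome bisulfite sequencing (WGBS) data. They were chosen by name as the folate carriers and receptors other than Slc46a1. They are 4 of 20807 autosomal protein-coding genes of GENCODE vM21, and the start sites of all 4 were among the 19924 that could be tested. The data were CpG methylation levels in whole brain, dissected from forebrain to hindbrain, of 4 male embryos at E11.5, 1 library per embryo and 1 embryo per group. All were of the 129S6.Cg Tet1tm1Koh line, in which a cassette at the first coding ATG of Tet1 interrupts the gene on an inbred 129S6 background. All dams were Tet1 heterozygous and were fed a custom diet that also held succinylsulfathiazole, an antibiotic that limits folate made by gut bacteria. The groups were Tet1 knockout (KO-30) and wild type (WT-30) under excess folic acid (FA, 30 ppm in the maternal diet), and knockout (KO-3) and wild type (WT-3) under control FA (3 ppm). By their embryo numbers the 4 embryos came from different litters, so KO and WT of a diet were not littermates. By the study's sample list, matched on these numbers, the KO embryos were the ones with a neural tube defect and the WT embryos were normal, so genotype and phenotype cannot be told apart.

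Folates supply 1-carbon units for nucleotide and methionine synthesis, and closure of the neural tube is known to depend on them. The reduced folate carrier, encoded by Slc19a1, exchanges reduced folates for other anions across the plasma membrane of most cells. Folate receptors alpha and beta, encoded by Folr1 and Folr2, are anchored at the cell surface by a lipid, bind folic acid tightly and take it up by endocytosis. Folr1 is known from the neural folds, the choroid plexus and the kidney, and Folr2 from macrophages and the placenta. Slc25a32, a carrier of the inner mitochondrial membrane, brings folate into the matrix, where formate is made for the cytosol. TET1 oxidises 5-methylcytosine, the first step of active demethylation. In its reduced representation libraries the study added an oxidation step to read 5-methylcytosine alone. Its methods name no such step for WGBS, so the levels below may include the oxidised form. Dense runs of CpGs at gene starts, called CpG islands, are as a rule unmethylated, with borders of intermediate level.

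The start regions of Slc19a1 and Folr2 differ in CpG density, which the promoter sequences show directly. RefSeq promoter windows on GRCm38 (mm10), 5′ to 3′ on the strand of the gene and from 250 bases before to 50 bases after the start, were on hand for Slc19a1 and Folr2, 2 windows each. Every CG is in capitals.
Slc19a1, chr10:77032489-77032788, plus strand: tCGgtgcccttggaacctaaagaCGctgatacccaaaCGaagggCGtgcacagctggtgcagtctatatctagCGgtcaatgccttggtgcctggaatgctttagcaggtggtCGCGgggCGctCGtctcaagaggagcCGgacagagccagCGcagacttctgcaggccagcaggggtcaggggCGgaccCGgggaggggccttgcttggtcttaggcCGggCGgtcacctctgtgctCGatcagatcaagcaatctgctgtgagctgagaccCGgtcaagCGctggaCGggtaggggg
Slc19a1, chr10:77032962-77033261, plus strand: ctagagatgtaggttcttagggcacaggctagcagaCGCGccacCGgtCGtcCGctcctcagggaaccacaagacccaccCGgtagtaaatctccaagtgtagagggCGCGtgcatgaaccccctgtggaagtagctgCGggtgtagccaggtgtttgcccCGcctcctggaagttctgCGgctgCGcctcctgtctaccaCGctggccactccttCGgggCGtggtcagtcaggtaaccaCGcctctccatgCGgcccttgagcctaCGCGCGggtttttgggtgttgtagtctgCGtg
Folr2, chr7:101857141-101857440, minus strand: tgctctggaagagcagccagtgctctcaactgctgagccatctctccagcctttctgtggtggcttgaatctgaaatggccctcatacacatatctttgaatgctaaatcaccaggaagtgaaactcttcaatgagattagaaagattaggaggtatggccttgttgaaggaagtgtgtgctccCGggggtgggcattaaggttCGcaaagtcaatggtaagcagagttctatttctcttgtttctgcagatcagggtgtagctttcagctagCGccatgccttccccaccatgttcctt
Folr2, chr7:101845282-101845581, minus strand: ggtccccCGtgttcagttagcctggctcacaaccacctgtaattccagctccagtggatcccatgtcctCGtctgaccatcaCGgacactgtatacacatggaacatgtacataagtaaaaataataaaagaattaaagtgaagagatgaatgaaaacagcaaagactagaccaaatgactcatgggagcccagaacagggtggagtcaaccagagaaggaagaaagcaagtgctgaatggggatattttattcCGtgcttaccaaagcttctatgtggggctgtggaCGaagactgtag
The Slc19a1 windows hold 19 and 21 CGs and the Folr2 windows 3 and 5. The median over 32851 RefSeq promoter windows was 7. All 8 CGs of the Folr2 windows had at least 5 reads in every library, against 2 of the 19 and 0 of the 21 CGs of Slc19a1. Values for the densest part of the Slc19a1 promoter are therefore few. The 2 Slc19a1 CGs were at 9.09% and 7.69% in KO-30 and WT-30 and at 0% in both at 3 ppm, on 11 to 20 reads, while the 2 Folr2 windows were between 82.9% and 98.1% in the 4 libraries.

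Levels are the share of methylated reads among all reads at the CpGs of a window read 5 times or more in every library, with reads summed over the CpGs. Mean coverage per CpG was 13.2 reads in KO-30, 14.3 in WT-30, 21.2 in KO-3 and 16.2 in WT-3, and mitochondrial CpGs, which served as background, kept 0.914 to 0.938% methylated reads. Start sites of 6 neural progenitor markers were at most 3.66% methylated in any library and those of 7 macrophage markers at least 64.9%. A start site was called where KO and WT differed by 10 points or more with an adjusted p under 0.05 (Fisher's exact test on reads, Benjamini-Hochberg adjustment over all start sites). Of all start sites 15.4% were called higher and 0.331% lower in KO at 30 ppm, and 16.6% and 0.381% at 3 ppm. Among the red blood cell markers, which were methylated between 23.9% and 96.7%, 2 of 5 start sites were called higher in KO at 30 ppm, and at 3 ppm 1 was called higher and 1 lower. Of the macrophage markers 1 of 7, Cx3cr1, was called, 11.6 points higher in KO at 30 ppm, and of 5 choroid plexus, 5 endothelium and 6 neural progenitor markers none was called in either diet. In the choroid plexus, endothelium and macrophage lists, by the adjusted p alone and with under 10 points, Otx2 was higher in KO at 30 ppm (7.60 points), Aqp1 (9.82), Tek (9.48), Kdr (6.13) and Mrc1 (6.96) were higher at 3 ppm, and Ttr was lower at 3 ppm (-5.92). The part of such cells in the results below was not tested, and in whole brain a level that differs cannot be told apart from a mix of cells that differs. With 1 embryo per group no value has an SD. Intervals below are 95% intervals for counting error (Wilson for levels, Newcombe for differences), and Fisher's exact test on reads compares 2 libraries, not the conditions. A read is counted at each CpG it covers, so these p-values and intervals can be too small.

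The window reaching 1 kb to either side of the start site placed the 4 genes in 3 classes. Slc25a32 was nearly unmethylated, Slc19a1 was at an intermediate level, and Folr1 and Folr2 were highly methylated. The mean of the WT libraries was 4.69% at Slc25a32, 46.8% at Slc19a1, 86.4% at Folr2 and 91.5% at Folr1. Among all start sites tested these levels stood at percentiles 9.92, 57.1, 87.8 and 97.0. The class of Slc19a1 holds for this window only, as 10 of the 12 CpGs used there lay before the annotated start. Within 500 bp of the start of Slc19a1-201, a principal transcript, the level was 0.730% to 3.61% in the 4 libraries. The intervals of Folr1 and Folr2 overlapped in each of the 4 libraries, so their order is not set.

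**Figure D1:**
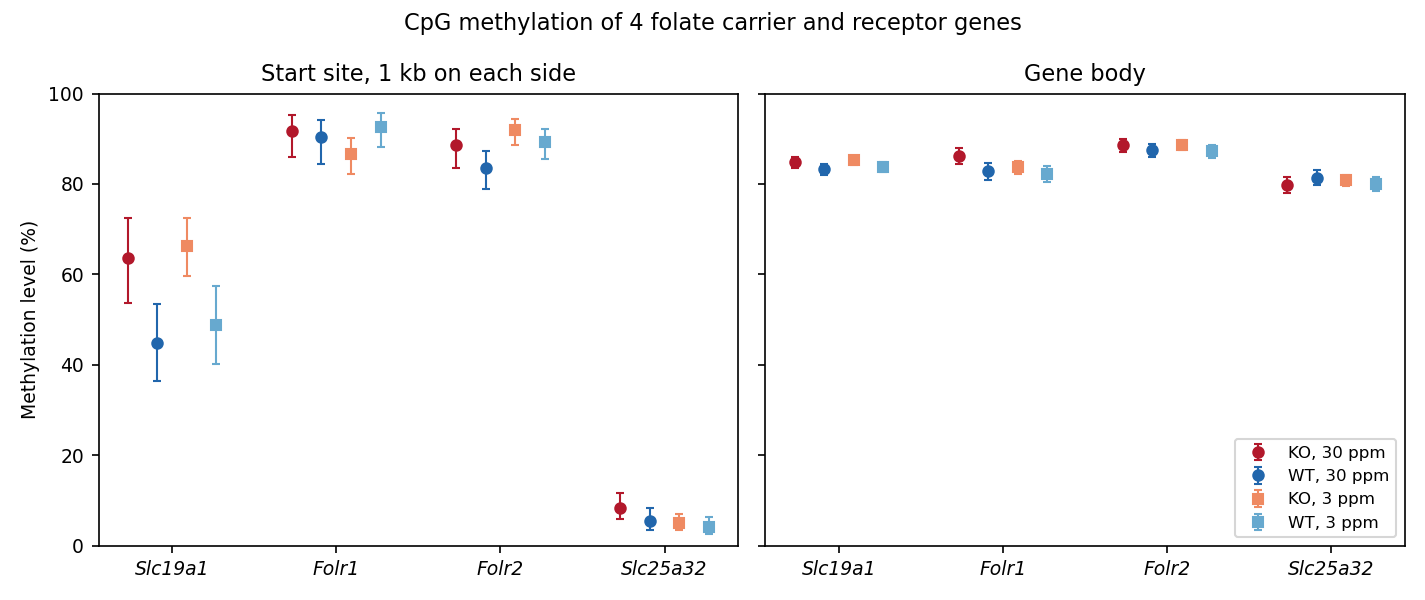
Methylation level in percent (y axis) of each gene (x axis) within 1 kb of the start site and over the gene body, in KO and WT at 30 ppm (circles) and 3 ppm (squares), with 95% Wilson intervals as bars. At the start site of Slc19a1 the KO libraries stood at 63.5% and 66.3% and the WT libraries at 44.8% and 48.8%, while all 16 gene body levels lay between 79.8% and 88.7%.

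Slc19a1 (ENSMUSG00000001436.15) lies on the plus strand at chr10:77032241-77061002, and its start window is chr10:77031241-77033241. Here 12 of 67 CpGs could be used. The level was 63.5% in KO-30 (96 reads), 44.8% in WT-30 (125 reads), 66.3% in KO-3 (208 reads) and 48.8% in WT-3 (123 reads). Both KO libraries were higher than both WT libraries. KO exceeded WT by 18.7 percentage points at 30 ppm (interval 5.48 to 31.0, adjusted p = 0.0342 by Fisher's exact test with Benjamini-Hochberg adjustment over all start sites). The difference at 3 ppm was 17.6 points (6.58 to 28.1, adjusted p = 0.0101, the same exact test), and 10.3 points as the mean over CpGs of equal weight. Both were called, beside 15.4% and 16.6% of all start sites called higher. KO-30 minus KO-3 was -2.80 points (-14.5 to 8.34, adjusted p = 0.972) and WT-30 minus WT-3 was -3.98 points (-16.1 to 8.33, adjusted p = 0.965), and neither passed the exact test. The difference between the diets in KO minus WT was 1.18 points (Wald test, adjusted p = 0.986), and it ranged from -5.67 to 10.2 points over the alternatives.

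Most alternatives ended the calls at Slc19a1, 5 of 6 with a test at 30 ppm and 4 of 6 at 3 ppm. Another window was the change in 3 of the 5 and in 2 of the 4. Centred on the principal transcript, inside the island, the difference was 2.67 points at 30 ppm (adjusted p = 0.721, exact test) and 8.35 points at 3 ppm (adjusted p = 0.0441), both short of the rule. In limma with diet as a covariate, the fit in which the spread between embryos enters, KO exceeded WT by 1.06 ± 0.27 (SE) on the log2 odds scale, with an adjusted p of 0.0594. That fit has 1 residual degree of freedom, which is the change of KO minus WT between the diets. Its SE leans mostly on the variance over all start sites (5.72 prior degrees of freedom) and not on this gene.

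Single CpGs could place the difference only among the 12 of 67 CpGs of the window that had enough reads. 10 of the 12 CpGs used stood before the start site, from -878 to -133 bp of it, and 7 of these 10 were higher in KO in both diets. At 30 ppm 10 of the 12 were higher and 0 lower in KO, and at 3 ppm 7 were higher and 3 lower. None was lower in both diets. The CpG with the largest mean difference lay at -397 bp, at chr10:77031844, where 6 of 6 reads were methylated in KO and 6 of 12 in WT at 30 ppm, and 19 of 24 in KO and 7 of 11 in WT at 3 ppm. Of the 2 CpGs after the start, the one 321 bp downstream had no methylated read in any library, and the one 292 bp downstream had 1 methylated read of 5 in KO-30, 1 of 6 in WT-30 and none in KO-3 or WT-3.

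A CpG island computed from the sequence begins 163 bp after the annotated start of Slc19a1 and ends 1683 bp after it (chr10:77032404-77033924, 1521 bp, 59.8% GC). The gene start is that of Slc19a1-207, a transcript without top support. The 2 transcripts that APPRIS ranks as principal, Slc19a1-209 and Slc19a1-201, start at 77032684 and 77033212, inside the island. The island itself was nearly unmethylated over the 30 of its 86 CpGs that could be used, at 4.01% and 1.47% in KO-30 and WT-30 and 5.43% and 0.946% in KO-3 and WT-3. Its 2 borders were not. In the 1 kb before the island the level was 68.0% in KO-30 and 46.2% in WT-30, and 70.1% and 53.9% in KO-3 and WT-3. In the 1 kb after it, inside the gene, the level was 54.3% in KO-30 and 40.7% in WT-30, and 66.7% and 37.6% in KO-3 and WT-3. KO was thus above WT on either side of the island in both diets. The differences were 21.8 (7.12 to 35.1) and 16.1 points (3.74 to 28.3) before it, and 13.6 (-3.61 to 29.7) and 29.0 points (14.6 to 41.8) after it, at 30 and 3 ppm. The first of the borders holds most CpGs of the start window and is no separate evidence, and the second was looked at after the profile had been seen.

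**Figure D2:**
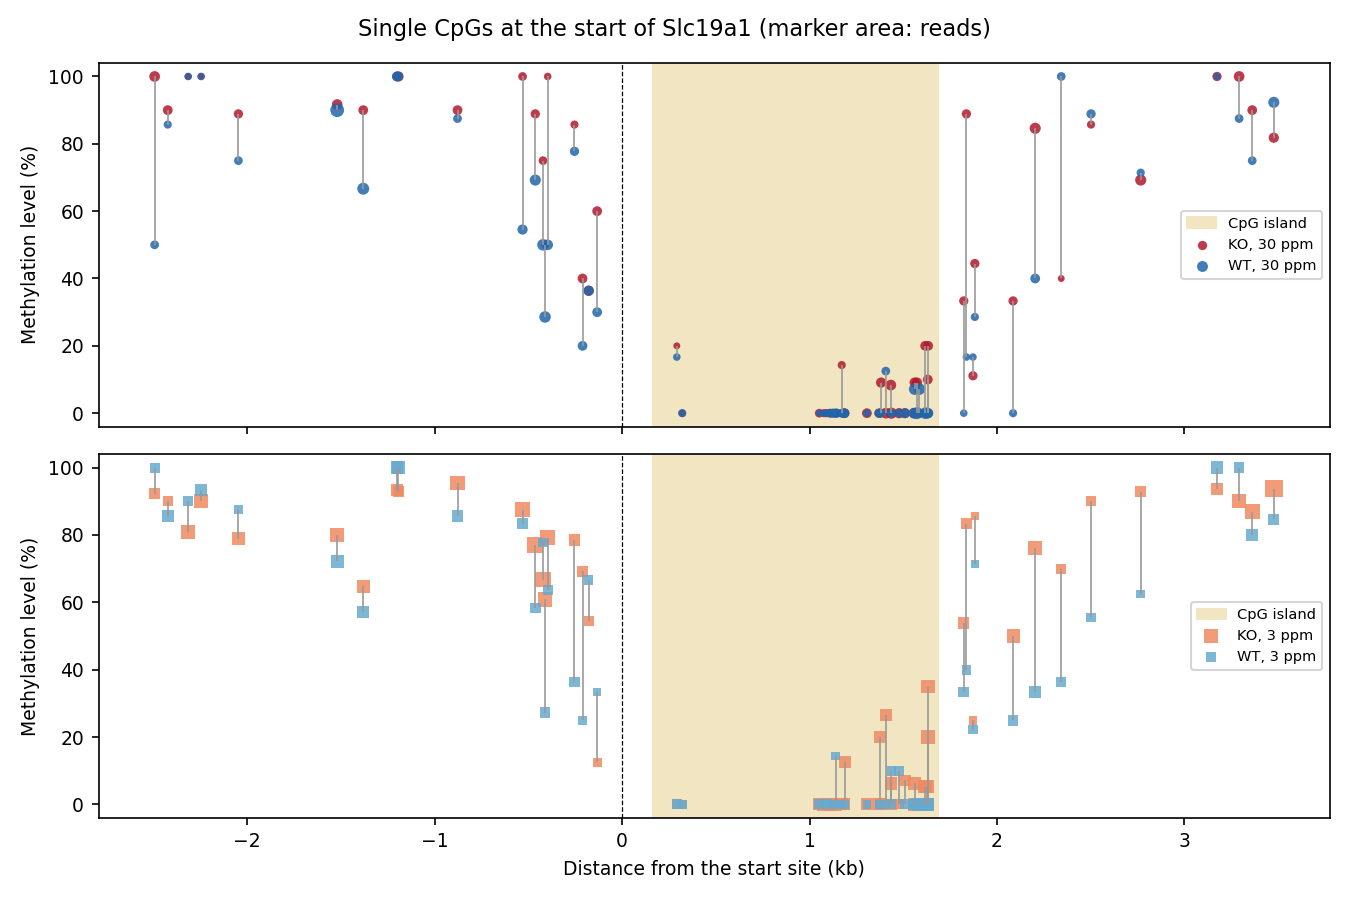
Methylation level in percent (y axis) of single CpGs against their distance in kb from the start site of Slc19a1 (x axis), at 30 ppm (upper panel) and 3 ppm (lower panel). Marker area follows the number of reads, grey lines join KO and WT at the same CpG, and the shaded island is near 0 while KO lies above WT at most CpGs on both of its borders.

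Over 500 bp bins, 1 of the 42 Slc19a1 gene body bins with at least 3 usable CpGs was called at 30 ppm, beside 1.13% of such bins over all genes. It was the bin 1.5 to 2.0 kb into the gene (chr10:77033741-77034240), at the far border of the island, which is intronic in the 7 of 9 annotated transcripts that span it. The level was 18.0% in KO-30 and 4.32% in WT-30, a difference of 13.7 points (6.22 to 21.6, adjusted p = 0.0345 by Fisher's exact test over 1178867 such bins). At 3 ppm it was 20.6% in KO and 8.72% in WT, a difference of 11.9 points (4.64 to 19.0) that missed the threshold (adjusted p = 0.0982, exact test). Among its 13 CpGs the largest mean difference was 1837 bp after the start, at chr10:77034078, with 8 of 9 methylated reads in KO and 1 of 6 in WT at 30 ppm, and 10 of 12 and 4 of 10 at 3 ppm. In the next bin, 2.0 to 2.5 kb into the gene, the level was 59.3% in KO-30, 48.0% in WT-30, 65.3% in KO-3 and 31.6% in WT-3, over 3 CpGs and 25 to 49 reads. Beyond 3 kb most of the gene body was above 80%, and its end is shared with Col18a1 (chr10:77052178-77166548, minus strand). The whole body was at 84.8% in KO-30 and 83.3% in WT-30, and at 85.2% and 83.8% in KO-3 and WT-3, with differences of 1.44 (adjusted p = 0.184, exact test) and 1.42 points (adjusted p = 0.148). With at least 10 reads per CpG the first was 4.30 points (adjusted p = 0.00377, exact test, 106 CpGs) and with no minimum of reads the second was 1.92 points (adjusted p = 0.0308), both under 10 points.

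Folr1, the receptor known from the neural folds, is on the minus strand at chr7:101858331-101870788 (ENSMUSG00000001827.12). Its start window, chr7:101869788-101871788, holds 18 CpGs, of which 14 could be used. The level was 91.6% in KO-30 and 90.3% in WT-30, and 86.7% in KO-3 and 92.7% in WT-3, on 143 to 271 reads. The libraries lay within 6 points of each other, and the KO library at 3 ppm was the lowest. KO minus WT was 1.26 points at 30 ppm (-5.60 to 8.14, adjusted p = 0.954) and -5.95 points at 3 ppm (-11.4 to -0.158, adjusted p = 0.133), both by the exact test. Within 500 bp of the same start, over 4 CpGs, KO-3 was at 76.6% and WT-3 at 95.3%, -18.8 points (adjusted p = 0.0846, exact test), and with at least 10 reads per CpG over the 1 kb window the value was -1.37 points. The difference between the diets, 7.22 points, did not pass the Wald test (adjusted p = 0.545). Between the diets, KO-30 minus KO-3 was 4.89 points (-1.82 to 10.7, adjusted p = 0.614) and WT-30 minus WT-3 was -2.33 points (-8.90 to 3.65, adjusted p = 0.942), neither past the exact test. The first turned sign with at least 10 reads per CpG (-0.308) and when thinned (-0.485).

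Folr1 has 15 annotated start positions. The 5 of them between 101868667 and 101869551 were at 39.4% to 66.3% within 500 bp, below the other 10 in each library. Within 500 bp of the start of Folr1-206, at 101869018, the level was 57.4% in KO-30 and 46.6% in WT-30, and 39.4% and 42.8% in KO-3 and WT-3. The lowest bin of the gene lay 1.5 to 2.0 kb after the gene start (chr7:101868789-101869288, exonic and non-coding in 13 of 16 transcripts), at 47.2% in KO-30, 29.0% in WT-30, 32.0% in KO-3 and 23.4% in WT-3, on 64 to 103 reads. KO exceeded WT there by 18.2 points at 30 ppm (2.19 to 33.0, adjusted p = 0.474) and 8.60 points at 3 ppm (-5.70 to 21.5, adjusted p = 0.885), so neither passed the exact test. No CpG island was found at the start of Folr1 or of Folr2. The gene body level was 86.2% in KO-30 and 82.9% in WT-30, and 83.8% and 82.2% in KO-3 and WT-3. At 30 ppm the difference of 3.34 points (0.796 to 5.88) had an adjusted p of 0.0269 by the exact test and fell short of the 10 points asked for a call.

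Folr2, the receptor known from macrophages, lies next to Folr1 on the same strand at chr7:101839988-101857194 (ENSMUSG00000032725.10). Its start window, chr7:101856194-101858194, had 16 of 17 CpGs usable. The level was 88.6% in KO-30 and 83.4% in WT-30, and 91.9% in KO-3 and 89.3% in WT-3, on 211 to 335 reads. The KO library was the higher one in each diet, by 5.18 points at 30 ppm (-1.09 to 11.1, adjusted p = 0.291) and 2.68 points at 3 ppm (-1.81 to 7.23, adjusted p = 0.483), and neither passed the exact test. The 30 ppm library minus the 3 ppm library was -3.31 points in KO (-8.88 to 1.65, adjusted p = 0.705) and -5.82 points in WT (-11.3 to -0.423, adjusted p = 0.385), and neither passed the exact test. At the other main start of the gene, Folr2-201 at 101845317, the level within 500 bp was 91.4% and 92.1% in KO-30 and WT-30 and 88.1% and 86.6% in KO-3 and WT-3. Both start regions of Folr2 were thus highly methylated in all 4 libraries.

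The neighbours overlap Folr1 and set the flanks of the receptor genes. Anapc15, on the other strand at chr7:101863715-101901849, covers the start window of Folr1, the 5 kb before it and part of its body. Levels there are thus also those of the inside of Anapc15. The 5 kb before Folr2 reach into the body of Folr1, so both genes share those CpGs. The 5 kb after Folr2 reach the start of Inppl1, whose island of 1907 bp was at 0% in 3 libraries and 3.19% in KO-3 over 7 usable CpGs. At the border of that island, in the bin 1.0 to 1.5 kb past the end of Folr2, the level was 8.11% in KO-30 and 13.6% in WT-30, and 36.4% in KO-3 and 10.2% in WT-3. The 26.2 points at 3 ppm (9.91 to 40.6) had an adjusted p of 0.0678 by the exact test on 49 and 55 reads. The Folr2 body itself was at 88.6% in KO-30 and 87.4% in WT-30, and at 88.7% and 87.3% in KO-3 and WT-3.

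**Figure D3:**
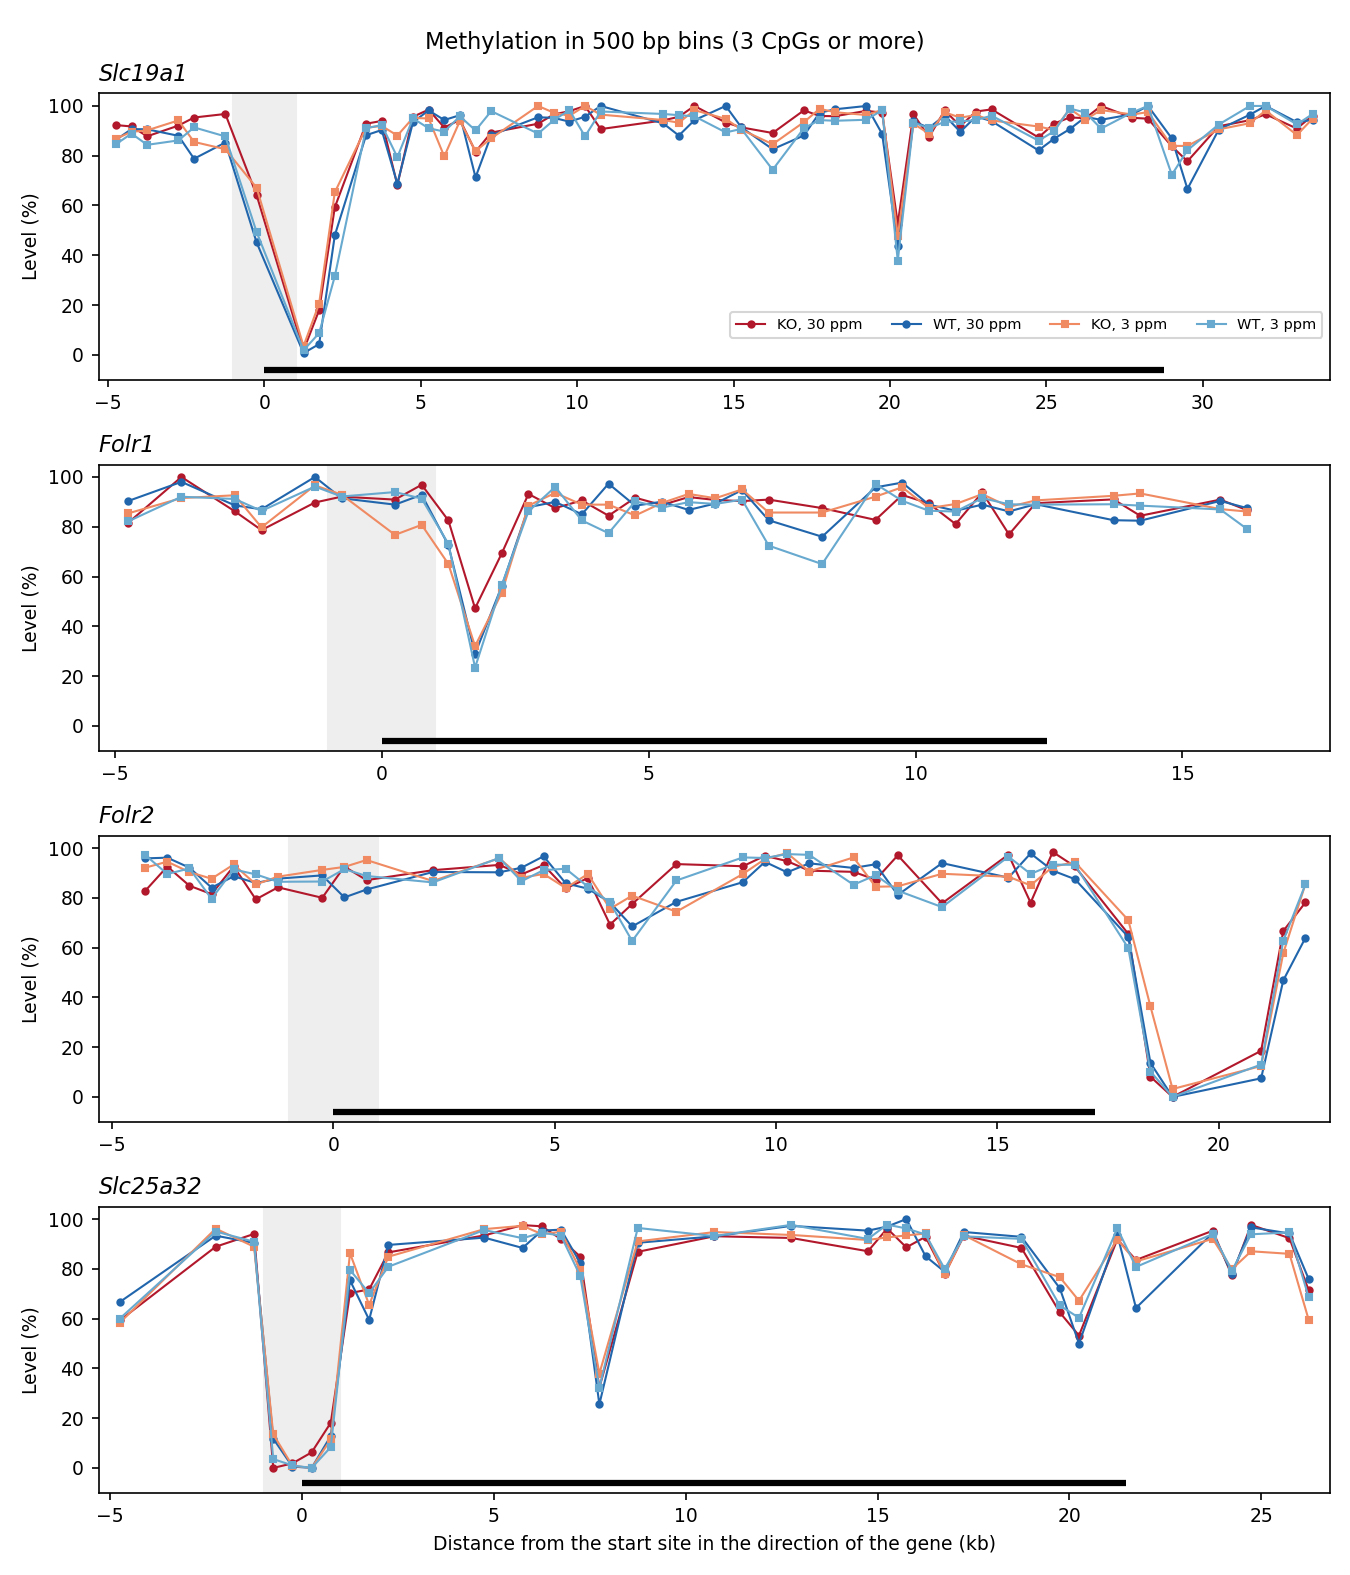
Methylation level in percent (y axis) in 500 bp bins with at least 3 usable CpGs, from 5 kb before the start to 5 kb after the end of each gene, against the distance from the start site in kb (x axis). The black bar is the gene and the grey band the start window. Slc25a32 is near 0 at the start, Slc19a1 is near 0 in the bin 1.0 to 1.5 kb inside the gene, the first plotted after its start, Folr1 has a partial dip to between 23.4% and 47.2% inside the gene, and Folr2 drops after its end, at Inppl1.

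Slc25a32, the mitochondrial carrier, lies on the minus strand at chr15:39091231-39112716 (ENSMUSG00000022299.9) and shares its start region with Dcaf13, which starts 149 bp away on the other strand. Its start window, chr15:39111716-39113716, holds 108 CpGs, of which 34 could be used. The level was 8.36% in KO-30 and 5.35% in WT-30, and 5.00% in KO-3 and 4.03% in WT-3, on 318 to 620 reads. The library of KO at 30 ppm was the highest of the 4. KO exceeded WT by 3.01 points at 30 ppm (-0.894 to 6.88, adjusted p = 0.304) and 0.970 points at 3 ppm (-1.85 to 3.50, adjusted p = 0.729), both by the exact test. The 30 ppm library minus the 3 ppm library was 3.36 points in KO (0.195 to 6.98, adjusted p = 0.358) and 1.32 points in WT (-1.81 to 4.73, adjusted p = 0.909), and neither passed the exact test. These upper bounds all lie under the 10 points of the call rule, but they hold counting error only, over the 34 CpGs used.

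An island of 988 bp spans the start of Slc25a32, from -445 to 542 bp of it. Over 21 of its 90 CpGs the level was 3.59% in KO-30 and 0.585% in WT-30, and 1.20% and 1.04% in KO-3 and WT-3. In the 1 kb after the island, inside the gene, the level was 38.8% in KO-30 and 38.9% in WT-30, and 43.3% in KO-3 and 26.7% in WT-3. KO minus WT was there -0.113 points at 30 ppm (-10.2 to 9.89) and 16.6 points at 3 ppm (7.80 to 24.8), and the difference between the diets was not tested. In the 1 kb before the island, on the side of Dcaf13, it was -9.30 points at 30 ppm (-21.1 to 2.84) and 0.490 points at 3 ppm (-10.9 to 11.47). The borders of this island thus did not show the higher KO level in both diets that those of Slc19a1 did, and the 2 genes were not compared by a test. The Slc25a32 body was at 79.8% in KO-30 and 81.4% in WT-30, and at 80.8% and 80.1% in KO-3 and WT-3.

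Set against the genome, 1 of the 4 genes was called higher in KO in each diet, and none lower. Folr1, at 90.3% in WT-30 and 92.7% in WT-3, had no room for a gain of 10 points and could not be called higher. Folr2, at 89.3% in WT-3, had little more room there. Slc25a32, at 5.35% in WT-30 and 4.03% in WT-3, could not be called lower. Of all start sites tested, 15.4% were called higher and 0.331% lower in KO-30 than in WT-30, and 16.6% and 0.381% for KO against WT at 3 ppm. Over the 4 genes KO minus WT had a median of 4.10 points in excess FA and 1.82 in control FA, beside 3.93 and 3.31 over all start sites. By the mean difference over both diets, Slc19a1 stood at percentile 95.7 of all start sites, Folr2 at 52.5, Slc25a32 at 37.7 and Folr1 at 7.56. For the diets, 0 of the 4 genes were called in either genotype, against 1.2% of start sites in KO and 0.793% in WT, and 0 in the difference between the diets, against 1.28%. The limma fit gave no adjusted p under 0.05 for any of the 4 genes, for genotype or for diet. Of all 19924 start sites it gave 1478 higher and 17 lower in KO at an adjusted p under 0.05, and for diet 0 (499 higher and 435 lower at 30 ppm at an unadjusted p under 0.05). The smallest unadjusted p was 0.00572 for genotype at Slc19a1, and for diet it was 0.0515 at Folr2.

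**Figure D4:**
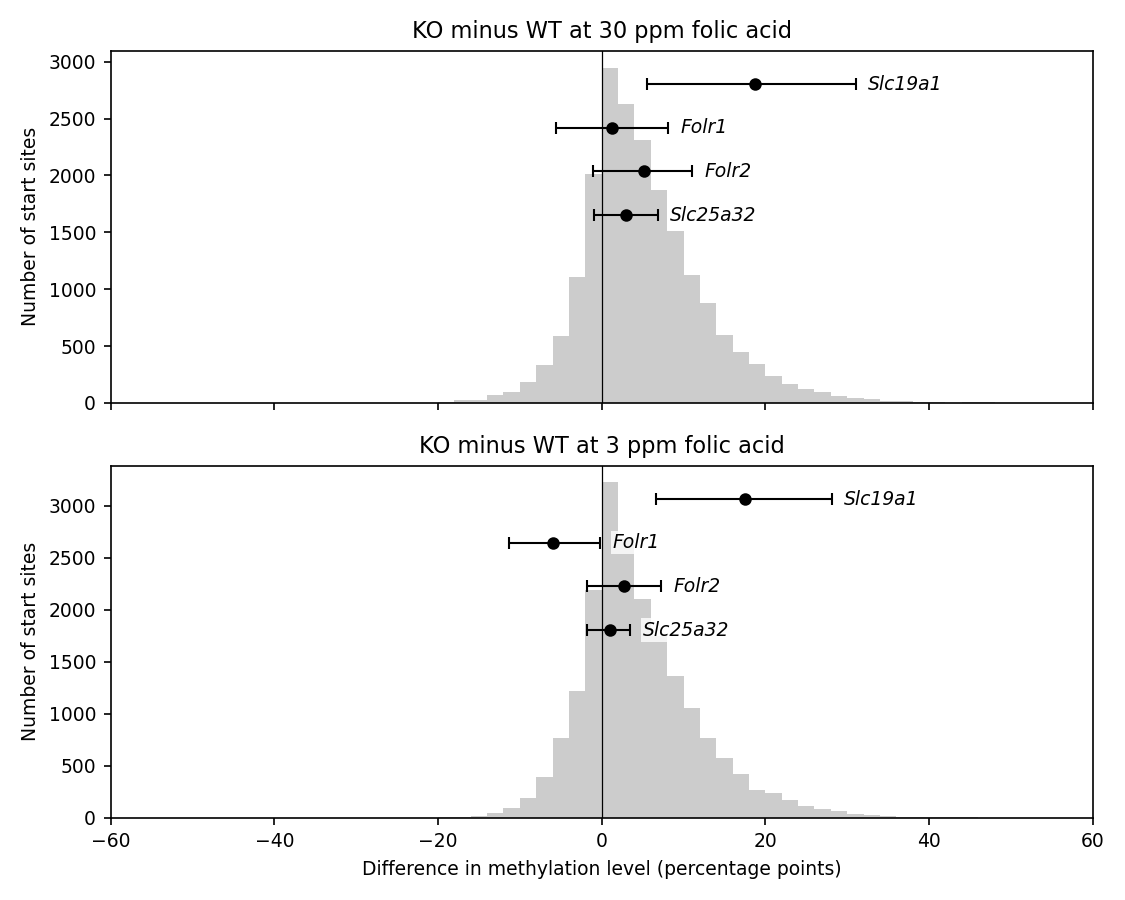
Difference in methylation level, KO minus WT, in percentage points (x axis) at 30 ppm (upper panel) and 3 ppm (lower panel). Grey bars count all protein-coding start sites tested (y axis), and black points give the 4 genes with 95% Newcombe intervals, placed at arbitrary heights. Slc19a1 lies to the right of most start sites at 18.7 and 17.6 points, and Folr1 lies at 1.26 and -5.95 points.

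Gene bodies and flanks added no further calls. None of the 4 bodies was called in any of the 4 comparisons, against 3.64% of gene bodies for KO versus WT at 30 ppm, 3.52% at 3 ppm, 0.287% for diet in KO and 0.47% for diet in WT. Of the flanking bins with enough CpGs, 0 of 14 at Slc19a1, 0 of 10 at Folr1, 0 of 14 at Folr2 and 0 of 11 at Slc25a32 were called in any comparison. Over all genes, 2.17% and 2.99% of flanking bins were called for genotype at 30 and 3 ppm, and 0.0236% and 0.0257% for diet in KO and WT. Of 112 gene body bins of the 4 genes, the single called one was that of Slc19a1 at 30 ppm, against 1.13% and 1.28% of body bins for genotype at 30 and 3 ppm and 0.0579% and 0.0383% for diet in KO and WT. The authors deposited lists of differentially methylated regions, called by a different method (DSS) between the same pairs of libraries. These held no region within the 4 genes or 5 kb of them. The nearest was 22.5 kb from Folr2, in the list of gains in KO at 30 ppm. For KO versus WT the lists held 4436 gains and 54 losses at 30 ppm, and 4437 and 57 at 3 ppm. For 30 versus 3 ppm they held 139 gains and 77 losses in KO, and 79 and 65 in WT. The share of all genes without such a region was not computed, so their absence here is not read as a result about the 4 genes.

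Slc19a1 lies 14.1 Mb from Tet1 on chromosome 10, and the Tet1 allele was brought onto 129S6 from B6. No CpG of the 4 genes and their flanks, out of 375, 196, 209 and 202, differed by 60 points or more between KO and WT in the same direction in both diets. Within 1 Mb of the start of Slc19a1, 5 of 18299 CpGs did so. The numbers were 2 of 13109 around Folr1, 3 of 13151 around Folr2 and 6 of 11059 around Slc25a32, which lie on other chromosomes than Tet1, and all of these CpGs were higher in KO. No such count was made around Tet1 itself. Whether B6 sequence was carried along with the allele as far as Slc19a1 was not tested. At that gene it cannot be told apart from genotype.

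Genes of a wider list were also called higher in KO. It holds 13 genes, folate transporters, exporters and polyglutamate enzymes together with relatives that are not folate carriers, the thiamine transporters Slc19a2 and Slc19a3 and Izumo1r, a member of the folate receptor family that binds sperm and not folate. Of these 13, 5 were called higher in KO at 30 ppm and 3 at 3 ppm, none lower, beside 15.4% and 16.6% of all start sites called higher. These were Slc46a1, the proton-coupled folate transporter, Izumo1r, the exporters Abcc3 and Abcc4, and Ggh, which trims polyglutamates, with Slc46a1 and Abcc4 called at 30 ppm and not at 3 ppm. Slc46a1 was at 49.5% in KO-30 and 32.6% in WT-30, and at 41.7% and 40.5% in KO-3 and WT-3, differences of 16.9 (9.12 to 24.4) and 1.16 points (-5.32 to 7.63). The difference between the diets did not pass the Wald test at Slc46a1 (adjusted p = 0.0947) or at Abcc4 (adjusted p = 0.161). Abcc3 went from 54.2% in WT to 77.6% in KO-30 and from 54.3% to 74.0% at 3 ppm. The median of KO minus WT over the list was 7.84 points in excess FA and 1.16 in control FA, beside 3.93 and 3.31 over all start sites.

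Of 22 enzymes of folate metabolism, 4 were called higher in KO at 30 ppm and none lower, with a median difference of 5.73 points, beside 15.4% and 3.93 points over all start sites. Shmt1, the cytosolic serine hydroxymethyltransferase, Aldh1l2, the mitochondrial formyltetrahydrofolate dehydrogenase, and Amt and Gcsh, both parts of the glycine cleavage system, were these 4, and all were also called higher at 3 ppm. Gldc and Dld, the other parts of that system on the list, were called in neither diet. KO minus WT at 30 and 3 ppm was 3.09 and -8.93 points at Gldc and -1.97 and 6.20 points at Dld. Gcsh was at 27.0% in KO-30 and 11.2% in WT-30 and at 29.6% and 11.6% in KO-3 and WT-3. Of the called genes named here from both lists, only Aldh1l2 passed the Wald test for a change of KO minus WT with diet (24.9 points at 30 ppm and 10.4 at 3 ppm, adjusted p = 0.0191). Of all start sites 1.28% were called in that test. Aldh1l2 was at 63.4% in KO-30 and 38.6% in WT-30, and at 58.8% and 48.4% in KO-3 and WT-3. Its 30 minus 3 ppm difference was 4.61 points in KO (adjusted p = 0.447) and -9.86 in WT (adjusted p = 0.0508), neither past the exact test. No gene of either list was called for diet in KO or in WT, beside 1.2% and 0.793% of all start sites.

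For Slc19a1, the genes with the most similar 4 levels at the start site, among 2339 with a like number of usable CpGs and at least 100 reads in each library, were Arf5, Susd5 and Rai1, within 3.67, 4.28 and 4.44 points in every library. Of these 2339, 6 came within 5 points, while 213 of 2793 did for Folr1, 242 of 4151 for Folr2 and 356 of 4010 for Slc25a32. These counts do not rank the genes, because counting error differs between them. In KO-30 the interval of the level was 53.6% to 72.5% at Slc19a1 and 5.92% to 11.7% at Slc25a32. The closest to Folr1 were Kdm4c, Serpina3b and G6pd2, to Folr2 Muc4, Ccn5 and Amhr2, and to Slc25a32 Tarbp1, Osr1 and Ppm1g.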

How the data were processed

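Per the labels and the study's methods, the authors trimmed reads with Trim Galore 0.6.10, aligned them with Bismark 0.23.1 to GRCm38.p6 (mm10), removed duplicates and added up the reads of the 2 strands at a CpG. In the deposited tables stand the methylated fraction and the read count of every CpG, which the authors did not normalise. Their product, never more than 4.37e-11 away from an integer, was rounded to methylated reads. Deposited positions count from 0 and were moved to 1-based. The 14907672 autosomal CpGs read 5 times or more in every library were used, and windows needed 3 of them. Reads were summed per window of all protein-coding genes of GENCODE vM21 and compared by Fisher's exact test, two-sided, with Benjamini-Hochberg adjustment (Python 3.11.15, SciPy 1.17.1), by a Wald test with 0.5 added to each count, and by limma 3.58.1 on log2((methylated + 1)/(unmethylated + 1)). Tests were checked on simulated reads. CpG islands were computed from the sequence (a length over 200 bp, 50% GC or more, a CpG ratio of observed to expected above 0.6, overlapping ones joined). Genes named: the 4 genes, list genes called in KO versus WT, Slc46a1, Gldc and Dld beside the called genes of their system, and for each gene the 3 with the closest levels. 2 results of the lists at 3 ppm are not reported here. In called windows the CpG of largest mean difference is named. The genes and lists were chosen with earlier results of these data known, and body bins, island borders and single starts were added after the data were seen. Combined lists of regions (gains and losses together) were not used. Promoter sequences of Folr1 and Slc25a32 were not used here.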

Additional observations from a re-analysis of the deposited data

How the results depend on the processing

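Alternatives were computed for 44 results, 226 values in all. Of these, 160 kept their direction and their side of the call rule (in limma, of the adjusted p), though the Slc19a1 body passed the adjusted p alone at 30 ppm with at least 10 reads (4.30 points) and at 3 ppm with no minimum (1.92 points), 18 means of CpG fractions, which had no test, kept their direction, and 16 counts of called flanking bins stayed at 0. The calls at Slc19a1 changed most. At 30 ppm the difference ranged from 2.67 to 22.0 points. It was no longer called with 500 bp on each side (15.8 points, adjusted p = 0.206), with 2.5 kb (8.01 points, adjusted p = 0.0241, under 10 points), with no minimum of reads (13.0 points, adjusted p = 0.0821), around the principal transcript's start (2.67 points) or with z scaled by its robust SD over all start sites (18.7 points, adjusted p = 0.475). At 3 ppm it ranged from 6.85 to 20.1 points and was no longer called with 2.5 kb (6.85 points), around the principal start (8.35 points), thinned to the shallowest library (11.7 points, adjusted p = 0.260) or with scaled z (17.6 points, adjusted p = 0.523). These adjusted p-values are from Fisher's exact test or, for z, from the Wald test. A minimum of 10 reads left under 3 CpGs there and gave no value. The cause of these changes was not tested.

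The sign turned, or in 1 case the value fell to 0, in 23 values of 14 results, none of them called as reported, and the largest of these results was 4.89 points. In points, with 500 bp on each side these became 0 for KO minus WT at Folr1 at 30 ppm, -0.149 at Slc25a32 at 3 ppm, 1.39 and -0.414 for diet in WT at Slc19a1 and Slc25a32, and -4.24 for the difference between the diets at Slc19a1. That difference was 10.2 thinned and 8.44 with the mean of CpG fractions, -2.84 with no minimum of reads and -5.67 at the principal start, where diet in WT was 0.601. Thinned, KO minus WT at Folr2 at 3 ppm was -0.266, and diet in KO was 0.836 at Slc19a1 and -0.485 at Folr1, which was -0.308 with at least 10 reads. In gene bodies, diet in KO was 0.559 at Slc19a1 with at least 10 reads, and 0.145, 0.0420 and 0.105 at Folr2 with at least 10 reads, no minimum and thinning. Diet in WT was 0.417 at Slc19a1 with no minimum, -1.14 at Folr1 thinned, and -0.452 and -0.000441 at Folr2 with at least 10 reads and thinned. With the mean of CpG fractions, KO minus WT at Folr1 at 30 ppm was -0.0598 and diet in KO at Slc19a1 was 5.38. The limma effect at Folr1 was 0.14 with at least 10 reads.

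Over all start sites limma called 1478 higher and 17 lower in KO on the log2 odds scale, 0 on the fraction scale (5449 higher and 171 lower at an unadjusted p under 0.05) and 0 with at least 10 reads (4062 and 200). No paired analysis was possible because the embryos came from different litters and no labels pair them. The limma fit with diet as a covariate compared KO with WT within each diet. With 1 embryo per group, no difference between 2 libraries has a replicate check, only the limma fit over both diets takes in a spread between embryos, and low coverage of CpG islands leaves most of their CpGs without a value.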
